A study of Oncorhynchus mykiss with 15 samples.

Results

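Adipocytes from intramuscular fat of rainbow trout (Oncorhynchus mykiss) were set against adipocytes from subcutaneous fat. The 5 libraries titled IMAT (intramuscular adipose tissue, the fat within muscle) and the 5 titled SAT (subcutaneous adipose tissue, the fat beneath the skin) were taken by their titles, 10 of the 15 libraries in the series, with all 64494 genes of the table. The other 5 libraries, from visceral fat (VAT), lay outside the comparison and shared its estimate of spread and its filter for low counts. All fish were untreated adults held at 15 °C and fasted for 24 h. In each depot the cells were mature adipocytes freed with collagenase type II, and RNA depleted of ribosomal RNA was sequenced as pairs of 150 bp. No strain, sex or pooling was stated, and the labels do not tie a library to a fish, so the p-values reflect only how libraries of a depot varied, and part of that variation may be technical.

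Mature adipocytes store triglyceride in a large lipid droplet and release fatty acids from it by lipolysis. In salmonid fish, fat lies in the visceral cavity, beneath the skin and in the connective tissue sheets that divide the muscle blocks, so that intramuscular adipocytes sit next to muscle fibres. The counts are given for Ensembl gene identifiers that the sources used here do not pair with names. No gene could therefore be assigned a function. The adipocyte label could not be checked against marker genes, nor could markers of muscle, blood, vessel or skin cells be looked up. In such preparations, fewer cells of a type and less RNA per cell cannot be told apart.

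Total counts were 2413951 to 4199494 per IMAT library and 4203986 to 7243006 per SAT library, so low transcripts were measured less precisely in IMAT. IMAT replicate 2 stood apart from the other IMAT libraries, as did SAT replicates 4 and 5 from the other SAT libraries in the genes detected at equal depth (42225 and 42203, against 32160 to 36311). All 5 IMAT libraries had fewer detected genes than all 5 SAT libraries, at 32025 ± 3104 against 41430 ± 3987 (SD, n = 5 each; exact two-sided permutation test, p = 0.00794, the smallest the design allows, adjusted p = 0.0198 over 5 tests). With every library thinned to 2413951 counts the means were 31673 ± 3509 in IMAT and 37258 ± 4769 in SAT, and the difference did not pass (exact permutation test, p = 0.0714, adjusted p = 0.119).

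Of 25695 genes tested, 2716 (10.6%) differed between the depots, and the differences were mostly toward higher levels in IMAT. There were 1889 genes (7.35%) higher and 827 genes (3.22%) lower in IMAT than in SAT, in the edgeR quasi-likelihood F-test at a Benjamini-Hochberg adjusted p of 0.05. The higher genes also differed by more. Their median log2 fold change was 2.56 (quartiles 1.66 and 3.68), while that of the lower genes was -1.39 (quartiles -1.81 and -1.09). Over all tested genes the median was -0.05. The groups did not overlap for 1429 of the higher genes (75.6%) and 465 of the lower genes (56.2%). Over all tested genes, all 5 IMAT libraries lay above all 5 SAT libraries for 6.37%, and below them for 2.82%.

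The balance between higher and lower calls depended on how libraries were scaled and on which libraries entered. The higher genes outnumbered the lower genes in every alternative. Scaling by TMM (trimmed mean of M-values, which corrects for a few abundant genes taking up reads) gave 69.6% of the calls as higher in IMAT. Scaling by total counts alone, chosen after the data were seen, gave 1283 higher and 1137 lower genes, or 53.0% higher, and moved the median log2 fold change of all genes to -0.33. Without IMAT replicate 2 there were 1520 higher and 561 lower genes. Leaving out SAT replicate 1, 2 or 3 brought the lower genes to 492, 402 and 429, in that order. They numbered 535 when IMAT replicate 4 was left out and 1279 when VAT replicate 5 was. Without SAT replicates 4 and 5 and VAT replicate 5, a fit added after the data were seen, 2388 genes were higher and 1963 were lower. When a difference of over 2-fold was required by the test itself (edgeR's glmTreat), 1008 genes were higher and 71 were lower.

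**Figure D1:**
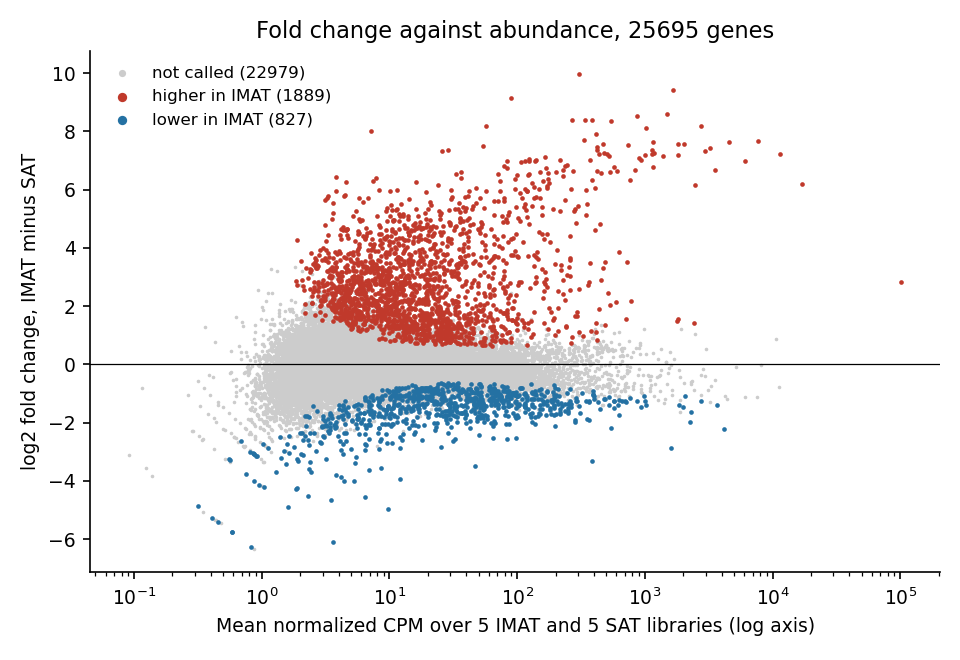
Each point is 1 of 25695 genes, with its mean normalized CPM over the 5 IMAT and 5 SAT libraries on a log axis and its log2 fold change (IMAT minus SAT) on the vertical axis. The 1889 genes higher in IMAT reach 9.96 and extend to the most abundant genes, while the 827 genes lower in IMAT lie mostly between -1 and -2.

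The size of the differences was not the same in both directions. Among the higher genes, 1025 (54.3%) differed 4- to 32-fold and 204 (10.8%) over 32-fold by fitted fold change. Among the lower genes, 514 (62.2%) differed 2- to 4-fold and 157 (19.0%) differed 4- to 32-fold. The 204 genes over 32-fold higher were abundant in IMAT and scarce in SAT, with median levels of 210.2 and 2.65 normalized CPM (counts scaled to a common TMM-corrected library total). The genes 4- to 32-fold higher were about as scarce in SAT, with median levels of 20.01 CPM in IMAT and 2.22 CPM in SAT. In the fit without IMAT replicate 2, 153 genes were over 32-fold higher.

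By fitted fold change 6 genes were over 32-fold lower in IMAT, and 13 were in the fit without IMAT replicate 2. The 6 genes were scarce in SAT too, with means of 0.822 to 7.14 CPM. No IMAT library had more than 1 count of any of them, and 5 of them had 0 counts in all IMAT libraries. In all, 6 of the 827 lower genes had 0 counts in every IMAT library. Against a floor of 3 counts over the 5 IMAT libraries (0.254 CPM) these 6 were at least 2.48-fold to at least 6.54-fold lower, so the fitted folds of such genes are not bounds. None of the 1889 higher genes was at 0 in all SAT libraries, and 1740 of them had at least 1 count in every SAT library. Of the 827 lower genes, 699 had at least 1 count in every IMAT library. A pattern close to presence and absence was rare. For 9 genes every IMAT library had at least 10 CPM and every SAT library less than 1 CPM, and 0 genes had the opposite pattern. The IMAT libraries held fewer counts, so limits set at 1 CPM or at 0 or 1 count were not equally strict in both depots.

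From 1 CPM upward, the share of genes called was larger at higher abundance. Among 12656 genes with 1 to 10 CPM on average, 5.12% were higher and 1.53% were lower in IMAT. Among 11401 genes with 10 to 100 CPM the shares were 9.07% higher and 4.03% lower. Both directions were nearly as frequent among the 1342 genes with 100 to 1000 CPM, at 13.4% higher and 10.8% lower. Among the 97 genes above 1000 CPM, 27.8% were higher and 11.3% were lower. Of the 199 genes below 1 CPM, 0 were higher and 18 (9.05%) were lower. Genes this scarce in both depots passed the filter for low counts mainly through VAT, and a gene high in IMAT would leave the class. The split in this class is therefore partly set by those rules and cannot be read as a result. The mean behind these classes includes the IMAT libraries, so a gene that is high in IMAT alone moves into a higher class by that.

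**Figure D2:**
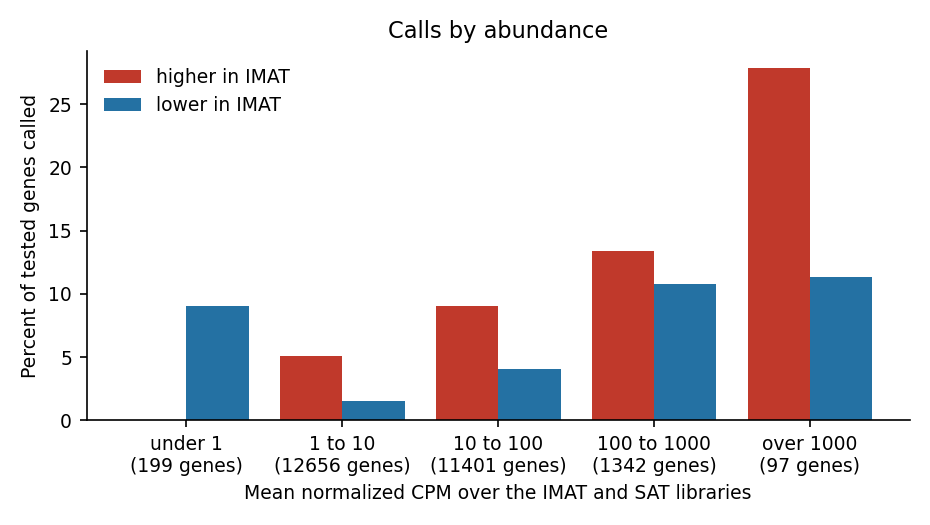
Bars give the percent of tested genes called higher (red) and lower (blue) in IMAT than in SAT, by class of mean normalized CPM over the 10 libraries, with the number of genes tested in each class under it. The shares are closest at 100 to 1000 CPM (13.4% and 10.8%) and furthest apart above 1000 CPM (27.8% and 11.3%). Below 1 CPM 0 genes were called higher, in a class partly set by the filter for low counts.

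For part of the genes the data limit any difference to less than 2-fold under TMM scaling. Scaling by total counts alone moved the median log2 fold change of all genes from -0.05 to -0.33, and the intervals were not recomputed for it. The 95% confidence interval of the log2 fold change, taken from limma-voom, lay within a 2-fold difference in either direction for 6752 genes (26.3%). This held for 5269 of the genes with 10 to 100 CPM (46.2%) and for 467 of those with 100 to 1000 CPM (34.8%). It held for 1001 of the genes with 1 to 10 CPM (7.91%), where the median interval reached 1.26 to either side on the log2 scale. It held for 15 of the 97 genes above 1000 CPM (15.5%). Of the 6752 genes, 0 were called different. That adds little, since the smallest called log2 fold changes were 0.635 and -0.627, which leaves an interval little room within the bound. For the genes with 1 to 10 CPM a call that was not made says little.

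The most abundant genes of the depots were partly shared. Of the 100 genes with the highest mean CPM in IMAT, 56 were also among the 100 highest in SAT. Of the 10 highest in IMAT, 4 were among the 10 highest in SAT. The test called 42 of the 100 most abundant IMAT genes higher and 7 lower in IMAT, whereas it called 4 of the 100 most abundant SAT genes higher and 22 lower. Of all tested genes, 7.35% were called higher and 3.22% lower. Of the 97 genes above 1000 CPM on average over both depots, 27.8% were called higher and 11.3% lower. The lists were chosen on these libraries, so the counts are a description. The 100 most abundant genes of each library took 37.5% ± 13.96 of the counts in IMAT and 27.6% ± 3.602 in SAT (SD, n = 5 each; exact two-sided permutation test, p = 0.0952, adjusted p = 0.119 over 5 tests). The 1000 most abundant took 61.4% ± 9.70 in IMAT and 54.7% ± 4.64 in SAT, which did not pass either (exact permutation test, p = 0.151, adjusted p = 0.151). Without IMAT replicate 2 the IMAT means were 31.5% ± 4.64 for the top 100 and 57.3% ± 3.55 for the top 1000 (exact permutation test, unadjusted p = 0.190 and 0.302).

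The largest differences in transcript number among genes whose libraries did not overlap were gains in IMAT. ENSOMYG00000060349 had 22620, 71243, 27973, 26646 and 19512 CPM in IMAT replicates 1 to 5, against 871.4, 419.2, 559.2, 131.3 and 327.3 CPM in SAT replicates 1 to 5. Every IMAT library was far above every SAT library, and IMAT replicate 2 was above the other IMAT libraries. The means were 33599 ± 21308 CPM in IMAT and 461.7 ± 276.8 CPM in SAT (SD, n = 5 each). Its log2 fold change was 6.19 (SE 0.717, edgeR quasi-likelihood F-test, Benjamini-Hochberg adjusted p = 7.23e-06), and 5.69 without IMAT replicate 2.

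ENSOMYG00000045072 followed the same order of libraries within SAT as far as its extremes, with replicate 1 highest and replicate 4 lowest. It had 11672, 49785, 20567, 22658 and 9639 CPM in IMAT replicates 1 to 5, against 247.9, 155.5, 171.6, 62.2 and 135.0 CPM in SAT replicates 1 to 5. Its log2 fold change was 7.21 (SE 0.792, edgeR quasi-likelihood F-test, adjusted p = 3.99e-06), and 6.68 without IMAT replicate 2. Both genes were lower still in VAT, at 2.85 to 38.8 CPM for ENSOMYG00000060349 and 0.745 to 21.1 CPM for ENSOMYG00000045072. Their log2 fold changes in VAT against SAT were -4.66 and -4.25 (edgeR quasi-likelihood F-test, adjusted p = 0.000117 and 0.000448), a comparison that uses the same SAT libraries.

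The 10 genes with the largest such gains mostly shared their highest and lowest libraries. Their mean levels were 4890 to 33599 CPM in IMAT and 18.7 to 461.7 CPM in SAT, and their log2 fold changes were 6.16 to 8.19. All 10 were highest in replicate 2 among the IMAT libraries, and 9 of them were lowest in replicate 5. All 10 were highest in replicate 1 among the SAT libraries, and 8 were lowest in replicate 4. Together they took 6.34, 14.8, 9.09, 9.22 and 5.55% of the counts in IMAT replicates 1 to 5. They took 0.181, 0.099, 0.116, 0.0421 and 0.104% in SAT replicates 1 to 5, and 0.000968 to 0.015% in the VAT libraries. The genes were picked for a lack of overlap between IMAT and SAT, so the gap between those shares is fixed by the choice. They were also ranked by the difference in mean CPM, which favours genes with a very high value in a single IMAT library. The shared peak in IMAT replicate 2 is therefore partly due to the choice. The VAT shares, which the choice did not use, lay below all SAT shares.

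**Figure D3:**
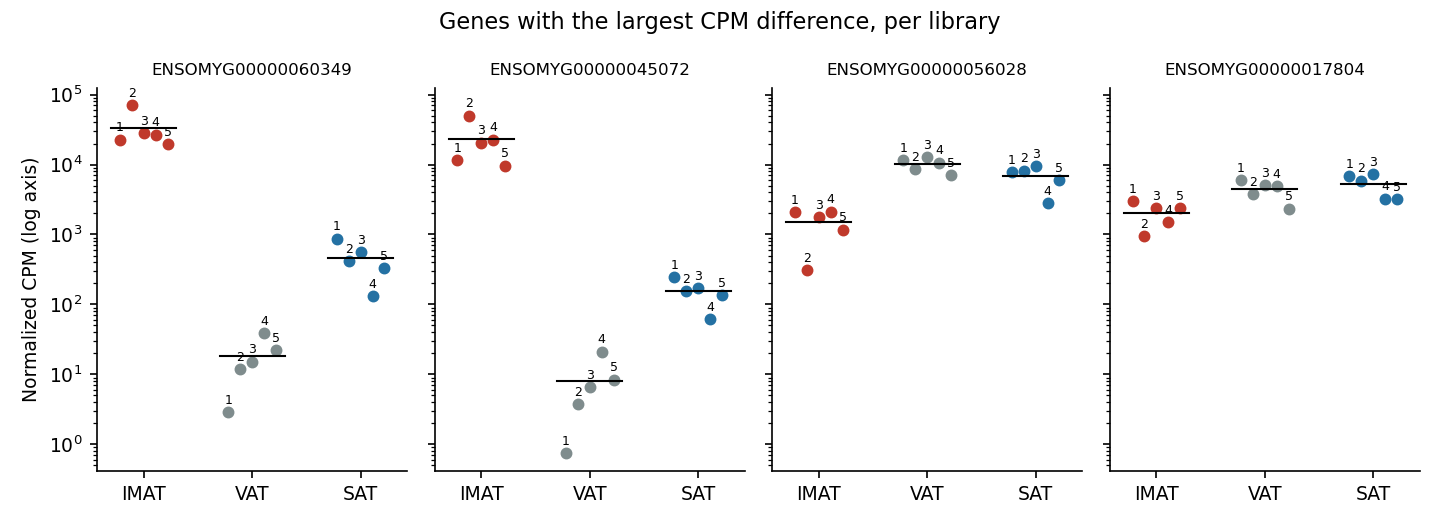
Points give the normalized CPM of 4 genes in each library on a log axis, numbered by replicate, with IMAT in red, VAT in grey, SAT in blue and the depot mean as a line. The 2 genes on the left had means of 33599 and 22864 CPM in IMAT, against 461.7 and 154.4 CPM in SAT, and the 2 on the right had 1489 and 2039 CPM in IMAT, against 6850 and 5293 CPM in SAT.

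The losses in IMAT were smaller in fold and in transcript number. ENSOMYG00000056028 had 2069, 308.9, 1785, 2116 and 1166 CPM in IMAT replicates 1 to 5, against 7857, 8184, 9426, 2802 and 5982 CPM in SAT replicates 1 to 5. The groups did not overlap, although SAT replicate 4 came close to the IMAT libraries. The mean was 1489 ± 760.7 CPM in IMAT and 6850 ± 2577 CPM in SAT (SD, n = 5 each). The log2 fold change was -2.20 (SE 0.458, edgeR quasi-likelihood F-test, adjusted p = 0.00327), and -1.96 without IMAT replicate 2.

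ENSOMYG00000017804 had 2982, 941.5, 2367, 1505 and 2400 CPM in IMAT replicates 1 to 5, against 6800, 5913, 7300, 3247 and 3206 CPM in SAT replicates 1 to 5. The groups did not overlap, but IMAT replicate 1 lay just below SAT replicates 4 and 5. Its log2 fold change was -1.38 (SE 0.38, edgeR quasi-likelihood F-test, adjusted p = 0.0249). The call was lost without SAT replicate 1, 2 or 3 or without IMAT replicate 4 (edgeR quasi-likelihood F-test, adjusted p = 0.0602, 0.0586, 0.0753 and 0.0688). In VAT, ENSOMYG00000056028 had 7058 to 12846 CPM and ENSOMYG00000017804 had 2350 to 5968 CPM. Neither differed between VAT and SAT by the test (log2 fold change 0.56 and -0.26, edgeR quasi-likelihood F-test, adjusted p = 0.566 and 0.799).

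Among the 10 genes with the largest losses, mean levels were 70.8 to 2039 CPM in IMAT and 706.5 to 6850 CPM in SAT, with log2 fold changes of -3.32 to -1.15. Within IMAT, 9 of the 10 were lowest in replicate 2. Within SAT, 8 were highest in replicate 3, and replicate 4 or 5 was lowest for all 10. Ranking by the difference in mean CPM favours genes with a high value in a single SAT library. These genes together took 0.938, 0.166, 0.772, 0.799 and 0.963% of the counts in IMAT replicates 1 to 5. They took 2.89, 3.13, 3.27, 1.70 and 2.52% in SAT replicates 1 to 5. As with the gains, the genes were picked for a lack of overlap, so the gap between those shares is set by the choice. The VAT shares, which the choice did not use, were 1.99 to 3.76% and overlapped the SAT shares.

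The 1889 higher genes as a whole took 23.6, 65.1, 32.1, 34.7 and 19.2% of the counts in IMAT replicates 1 to 5, against 5.09, 4.68, 5.46, 4.72 and 6.74% in SAT replicates 1 to 5. The mean was 34.9% ± 18.0 in IMAT (27.4% ± 7.26 without replicate 2) and 5.34% ± 0.841 in SAT. In IMAT replicate 2 the single most abundant gene took 31.5% of the counts. The most abundant gene of each other library took 3.47 to 10.8% in IMAT and 2.05 to 3.95% in SAT. It was found in each library separately, so it need not be the same gene. The top gene of IMAT replicate 2 was not among the 10 genes with the largest gains whose libraries did not overlap. Those 10 took 14.8% there together. This top gene must have been called higher, and so made up a large part of the 65.1%. The lower genes took 1.31% in that library and the 22979 genes not called took 32.9%. The 10000 most abundant genes took 95.5% there. The genes not called could therefore not have held this gene beside all their other counts. No gene took more than 3.95% of the counts of a SAT library, so this gene gained more in mean CPM than any of the 10. Its absence from that list therefore means that its IMAT and SAT libraries overlapped. The 827 lower genes took 5.36, 1.31, 4.36, 3.74 and 5.37% in IMAT replicates 1 to 5, against 12.7, 14.01, 13.4, 9.99 and 9.88% in SAT replicates 1 to 5. In VAT the shares were 3.55 to 4.63% for the higher genes and 7.97 to 15.5% for the lower genes. The genes were called on the IMAT and SAT libraries, so these shares were not tested.

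**Figure D4:**
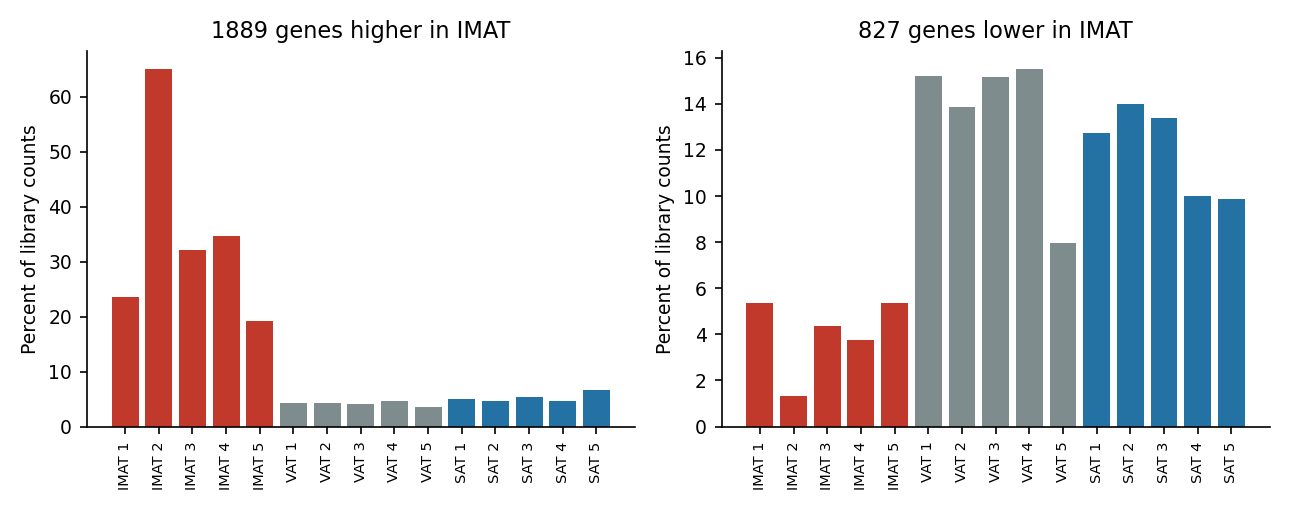
Bars give the percent of each library's counts in the 1889 genes higher in IMAT (left) and in the 827 genes lower in IMAT (right), for 5 IMAT (red), 5 VAT (grey) and 5 SAT (blue) libraries. The higher genes took 19.2 to 65.1% of the IMAT counts and 4.68 to 6.74% of the SAT counts, and the lower genes took 1.31 to 5.37% of the IMAT counts and 9.88 to 14.01% of the SAT counts.

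The IMAT libraries differed among themselves in these genes, and in opposite directions for the higher and the lower ones. IMAT replicate 2 had the highest IMAT value for 1218 of the 1889 higher genes, and replicate 5 had the lowest for 1089. This order was sharpest for the 204 genes over 32-fold higher, of which 181 were highest in replicate 2 and 151 were lowest in replicate 5. Their median level was 125.5, 448.2, 169.0, 154.1 and 89.7 CPM in IMAT replicates 1 to 5, against 2.01 to 3.03 CPM in the SAT libraries. The order was also present among the 549 genes 2- to 4-fold higher. Of these, 290 (52.8%) were highest in replicate 2 and 308 were lowest in replicate 5. Of the 111 genes less than 2-fold higher, 72 (64.9%) were highest in replicate 2, so that share did not rise steadily with fold. A high value in replicate 2 also raises the fitted fold, so its peak among the genes over 32-fold higher is partly due to the classes. Of the 827 lower genes, 446 were lowest in IMAT replicate 2 and 65 were highest there. Counts of highest and lowest libraries, here and for SAT below, were not made over all tested genes. They therefore cannot be read as particular to the called genes.

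Within SAT, the lower genes varied by library and the higher genes less so. For the 827 lower genes, SAT replicate 5 had the lowest SAT value in 399 and replicate 4 in 281, while replicates 2 and 3 had the highest in 278 and 272. The median level of the 514 genes 2- to 4-fold lower was 56.2, 66.8, 62.1, 40.9 and 35.5 CPM in SAT replicates 1 to 5, against 12.9 to 24.8 CPM in the IMAT libraries. For the 1889 higher genes, no SAT library was highest in more than 584, which was replicate 5.

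In VAT, outside the comparison, the median levels of the higher genes were at or below those in SAT, and the library medians of the lower genes overlapped those in SAT in the 3 classes given here. The genes over 32-fold higher in IMAT had library medians of 0.248 to 0.622 CPM in VAT, below the 2.01 to 3.03 CPM in SAT. The 1025 genes 4- to 32-fold higher had 0.745 to 1.24 CPM in VAT, against 1.73 to 2.84 CPM in SAT. For the 111 genes less than 2-fold higher, VAT (19.2 to 22.9 CPM) and SAT (19.7 to 21.4 CPM) overlapped. The 514 genes 2- to 4-fold lower in IMAT had 25.8 to 53.9 CPM in VAT, which overlapped the 35.5 to 66.8 CPM in SAT. The 157 genes 4- to 32-fold lower had 4.01 to 8.22 CPM in VAT, which overlapped the 5.12 to 11.8 CPM in SAT. The 6 genes over 32-fold lower had 1.40 to 2.10 CPM in VAT and 0.941 to 1.64 CPM in SAT. Genes this scarce in SAT and at or near 0 in IMAT passed the filter for low counts mainly through VAT. Their VAT level was thus partly set by that filter and is not a result of its own. Single genes departed from these class medians, since 2 of the 10 genes with the largest losses were also called lower in VAT than in SAT, with a log2 fold change down to -4.02. Of the 10 genes with the largest gains, 9 were called lower in VAT than in SAT. The share of all tested genes called between VAT and SAT is not given here, so these counts cannot be weighed against it. Since the genes were chosen by a low or a high level in the same SAT libraries, these levels are a description.

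**Figure D5:**
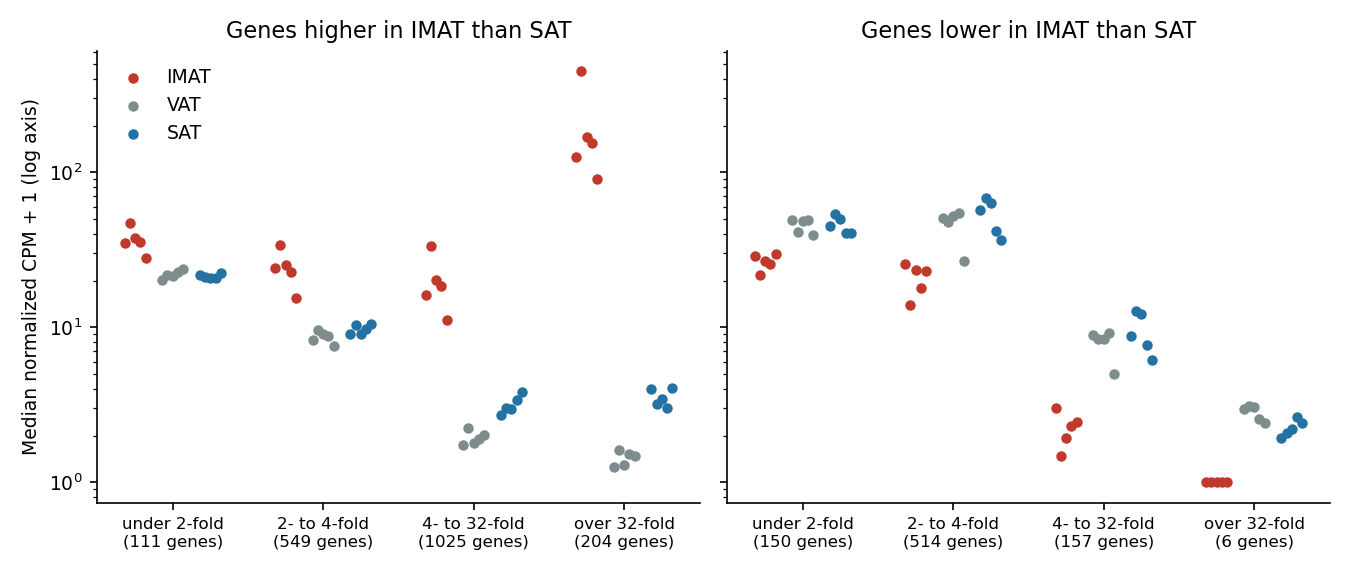
Points give the median normalized CPM plus 1 of each library on a log axis, for the genes higher (left) and lower (right) in IMAT than in SAT, by class of fitted fold change, with IMAT in red, VAT in grey and SAT in blue. In the 204 genes over 32-fold higher the IMAT medians run from 89.7 to 448.2 CPM and the SAT medians from 2.01 to 3.03 CPM, while in the 514 genes 2- to 4-fold lower they run from 12.9 to 24.8 CPM in IMAT and from 35.5 to 66.8 CPM in SAT.

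Over all tested genes the IMAT libraries were more variable than the SAT libraries, but among the most abundant genes the order depended on single libraries. The median SD of log2 CPM between the 5 libraries was 0.70 in IMAT and 0.46 in SAT, and it was 0.56 in IMAT without replicate 2. The gap was widest for genes with 1 to 10 CPM, at 0.99 in IMAT and 0.56 in SAT. For genes with 100 to 1000 CPM the values were 0.46 in IMAT and 0.44 in SAT. Without IMAT replicate 2 the IMAT value was 0.35, and without SAT replicate 5 the SAT value was 0.34. For the 97 genes above 1000 CPM the order was the other way with all libraries, at 0.66 in IMAT and 0.72 in SAT. It turned when SAT replicate 5 or 4 was left out, which brought the SAT value to 0.46 and 0.54, in that order. Without IMAT replicate 2 the IMAT value was 0.51. At equal depth the medians over all tested genes were 0.66 in IMAT and 0.48 in SAT. There the IMAT value was 0.53 without IMAT replicate 2, close to SAT, and the SAT value was 0.42 without SAT replicate 5. For genes with 1 to 10 CPM the equal-depth values were 0.85 in IMAT and 0.57 in SAT. Genes are not independent replicates, so no test was made of these medians.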

How the data were processed

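The authors deposited raw counts per gene, whole numbers for 64494 Ensembl gene identifiers in 15 libraries of total RNA from adipocytes. Per the submitters' processing notes, Trimmomatic 0.30, STAR 2.5.2b, featureCounts of Subread 1.5.2 and DESeq2 1.6.3 were used. For the genome build, annotation, strand setting and reads with several matches, the entry is: not given in the sources used here. Trout carry many near-identical gene copies and overlapping genes, between which such counting may split reads, so a count for a single gene is uncertain. None of the 72772 lines of the supplied RefSeq gene table carries an Ensembl identifier, so 0 identifiers matched and the 33 lists of marker and pathway genes were not run.

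Counts were tested with edgeR 4.0.16 in R 4.3.3 (TMM, quasi-likelihood F-test with robust dispersion, 1 fit of all 15 libraries by depot). Genes were kept by filterByExpr (minimum count 10, minimum total 15), leaving 25695 genes with 99.0% of the counts. The TMM factor was 0.501 in IMAT replicate 2 and 0.894 to 1.29 in the other IMAT and SAT libraries. The SE is the log2 fold change divided by the square root of F, a rough guide. Single values per library were compared by exact permutation of 5 against 5 libraries (252 arrangements). Alternatives used limma 3.58.1 and DESeq2 1.42.0, other filters and scalings, equal depth, a replicate block and libraries left out. The fit was tested on simulated data with known changes. All 20 pairs of libraries within IMAT and SAT differed beyond counting noise (chi-square of at least 6.37 per degree of freedom), and each counted once.

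The named genes were, in each direction, the first 2 by the difference in mean normalized CPM among called genes whose libraries did not overlap, and the first 10 are given as ranges. With CPM of plain totals the same 2 came first in each direction. A library was counted as highest or lowest for a gene only where no other tied with it. The comparison, lists and rules were chosen with earlier results of these data known. Bounds against 3 counts cover counting error only.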

Additional observations from a re-analysis of the deposited data

Results flagged for a closer look

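In 4 of 38 sets of 5 values examined, 1 library lay further from its neighbour than Dixon's 95% critical value allows. Chance marks about 1 in 20 sets of independent, normally distributed values. These sets share libraries, and some hold genes chosen on them, so that rate does not apply to the 4 flags. IMAT replicate 2 was that library in all 4. Its total was 4199494 counts, with 2655266 in the next IMAT library. Its 100 most abundant genes took 61.4% of its counts, with 35.7% in the next, and its single most abundant gene took 31.5%. The 10 genes with the largest losses took 0.166% of its counts, with 0.772% in the next. ENSOMYG00000060349 had 71243 CPM there, with 27973 CPM in the next.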

How the results depend on the processing

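The 2716 differing genes (1889 higher, 827 lower in IMAT) were 1079 (1008 and 71) when the test itself required over 2-fold and 4351 (2388 and 1963) without SAT replicates 4 and 5 and VAT replicate 5, a fit added after the data were seen. DESeq2 called 3963 (2479 and 1484). Leaving out each library in turn gave 1962 to 3515 differing, 1520 to 2236 higher and 402 to 1279 lower genes. The other alternatives (another size factor, scaling by totals, limma-voom, both filters, 10 libraries, equal depth, no robust step) gave counts within 1.5 times in both directions, with 53.0 to 74.9% of the calls higher. The replicate numbers were not taken as pairs: same-numbered IMAT and SAT libraries correlated at -0.0244 to 0.192 in their deviations from the depot means, and 1 of 5 IMAT libraries correlated best with its own number in SAT. With the replicate block 2819 genes differed (1861 higher, 958 lower), and 2322 (1639 and 683) with the block in the 10 libraries.

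None of the 4 named genes reversed in 28 alternatives. ENSOMYG00000017804 lost its call in 5 of them and the other 3 genes in 0. For ENSOMYG00000017804 the adjusted p was 0.615 where the test itself required over 2-fold (glmTreat). It was 0.0586 to 0.0753 without SAT replicate 1, 2 or 3 or IMAT replicate 4 (edgeR quasi-likelihood F-test). The lowest was 0.000689 (DESeq2 Wald test). The difference in detected genes, IMAT minus SAT, was -9404, and -5586 at equal depth, where it no longer passed (exact permutation test, p = 0.0714). The ratio of the median SD in IMAT to that in SAT was 1.52, with 1.52 at a prior count of 5, 1.38 at equal depth and 1.23 to 1.76 with single libraries left out. The lower IMAT depth limits what could be detected among genes under 10 CPM.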
